A study of Mus musculus with 6 samples.

Results

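The genes of DNA replication were followed in sorted mouse bone marrow progenitors with and without active Notch2. The set was a list of 45 genes matched by exact symbol to the array annotation. Where several probe sets read 1 gene, the brightest by its mean of 6 arrays was used. Of the 45 genes, 44 had a probe set of their own, and all 44 were among the 12837 genes tested. Chaf1a was not analysed here. RNA came from lineage-negative, cKit+, Sca1- cells, named myeloerythroid progenitors, of mice aged 6 weeks. Mice of both groups carried Mx1-cre+ and were given polyIC 3 times, at a dose of 20 mcg/g, 1 week before the cells were taken. PolyIC raises interferon, and interferon turns on Mx1-cre in blood-forming cells and in other tissues that respond to it. The ICN2-positive group (Rosa-lsl-ICN2 Mx1-cre+) also carried ICN2, the intracellular part of Notch2, behind a stop cassette that the recombinase removes. The ICN2-negative group (Mx1-cre+) consisted of littermates without ICN2. There were 3 arrays per group. The labels give female for every ICN2-negative sample and male for every ICN2-positive sample, and an effect of genotype and one of sex cannot be told apart. Replicates are not stated to be separate animals, and if they are not, p-values reflect technical spread alone.

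Replication starts when the origin recognition complex, with Cdc6 and Cdt1, loads the ring of Mcm proteins onto DNA. Cdc45 and the GINS proteins turn the ring into an active helicase at the start of S phase. Primase and polymerase alpha lay down primers, and polymerases delta and epsilon extend them on the Pcna clamp. Many of these genes are transcribed at the border of G1 and S under E2F factors, and cycling blood progenitors express them. The comparison asked how their transcripts differed with ICN2.

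The arrays were not equally alike. Over all probe sets, ICN2-positive replicate 1 correlated with ICN2-positive replicates 2 and 3 at 0.984 and 0.988, while replicates 2 and 3 reached 0.995 with each other and the ICN2-negative arrays 0.994 to 0.995. The 3' minus 5' signal of control transcripts, a measure of RNA length, was highest in ICN2-positive replicate 1 for beta-actin (1.01 on the log2 scale, with 0.71 to 0.85 on the other arrays), for Gapdh (0.73, with 0.63 to 0.66) and for pyruvate carboxylase (1.97, with 1.46 to 1.90). For the transferrin receptor it was 2.92 there, inside the range of 2.86 to 3.28 of the others. Kit, the receptor used in the sort, read 10.46, 10.50 and 10.38 in ICN2-negative and 10.15, 10.70 and 10.86 in ICN2-positive replicates 1 to 3 (log2 intensity), a difference of 0.12 ± 0.19 (SE). Cd34, a marker of early progenitors, read 12.44, 12.38 and 12.31 and 9.50, 11.99 and 11.60, lowest in ICN2-positive replicate 1. The groups were apart, at -1.35 ± 0.65 (adjusted p = 0.246 in limma). Of 5 progenitor gate markers tested, 0 had an adjusted p under 0.05, and the median difference was -0.021. Besides Kit and Cd34 these were Gata2 (0.24), Myb (-0.021) and Runx1 (-0.069). Ly6a, which encodes Sca1, was not analysed here.

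No replication gene passed the threshold. Of the 44 genes, 0 had an adjusted p under 0.05 in limma, beside 4.36% of all genes tested (2.59% higher and 1.78% lower in ICN2-positive cells). At an adjusted p under 0.1 the count was again 0, beside 12.5% of all genes. At an unadjusted p under 0.05 it was 5 (11.4%), beside 27.4% of all genes. These 5 were Prim2, Gins1 and Tk1, with lower means in ICN2-positive cells, and Pola2 and Pold2, with higher means. In bulk RNA, fewer cells of a type and less RNA per cell cannot be told apart.

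The values of the groups did not overlap in 15 of the 44 genes (34.1%), beside 37.5% of all genes. In 6 of them (Mcm7, Pola2, Pold2, Pole, Rfc3 and Rpa2) the ICN2-positive values were higher, beside 20.7% of all genes. In 9 (Cdc6, Cdt1, Mcm4, Mcm5, Gins1, Gins2, Prim2, Rfc1 and Tk1) they were lower, beside 16.9%. Over the 44 genes, 21 had a higher mean and 23 a lower one, and the median difference was -0.0059 on the log2 scale, beside 0.017 over all genes.

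The intervals of these differences were narrow. Differences ran from -0.26 in Prim2 to 0.37 in Pold2, and 0 of the 44 exceeded 0.5 in size, beside 17.9% of all genes. The 95% interval of the difference, taken for each gene on its own, lay within 1 on either side, which is 2-fold, for 44 of 44 members and 81.1% of all genes. It lay within 0.5 for 38 members and 50.9% of all genes. The 6 members with a wider interval were Orc1, Mcm10, Pold2, Pole, Tyms and Chaf1b, and the farthest bound was 0.74, for Pold2. The median size of a difference was 0.073 in the members and 0.18 over all genes, and the median SD within a group was 0.053 and 0.15. The members were bright, with a lowest group mean of 8.66 (Tyms) beside array medians of 6.05 to 6.09 over all probe sets except controls. The part of brightness in their small differences and narrow intervals was not tested. In 9 members the mean log2 intensity was above 13, where the highest value of the table was 14.59, and compression of differences near that end was not tested.

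**Figure D1:**
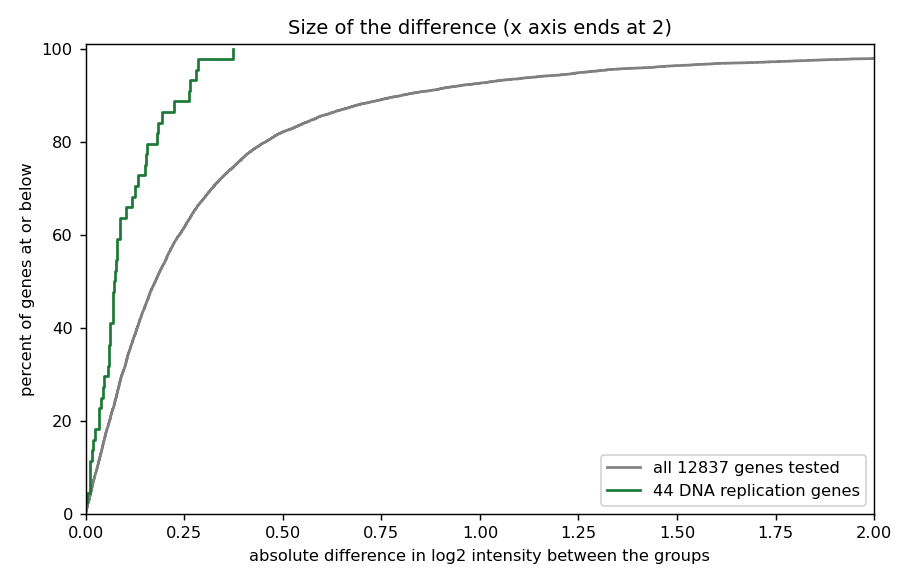
Cumulative percent of genes (y axis) by the absolute difference in log2 intensity between the groups (x axis), for the 44 DNA replication genes and all 12837 genes tested. The replication genes end at 0.37 and have a median of 0.073, against 0.18 over all genes.

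**Figure D2:**
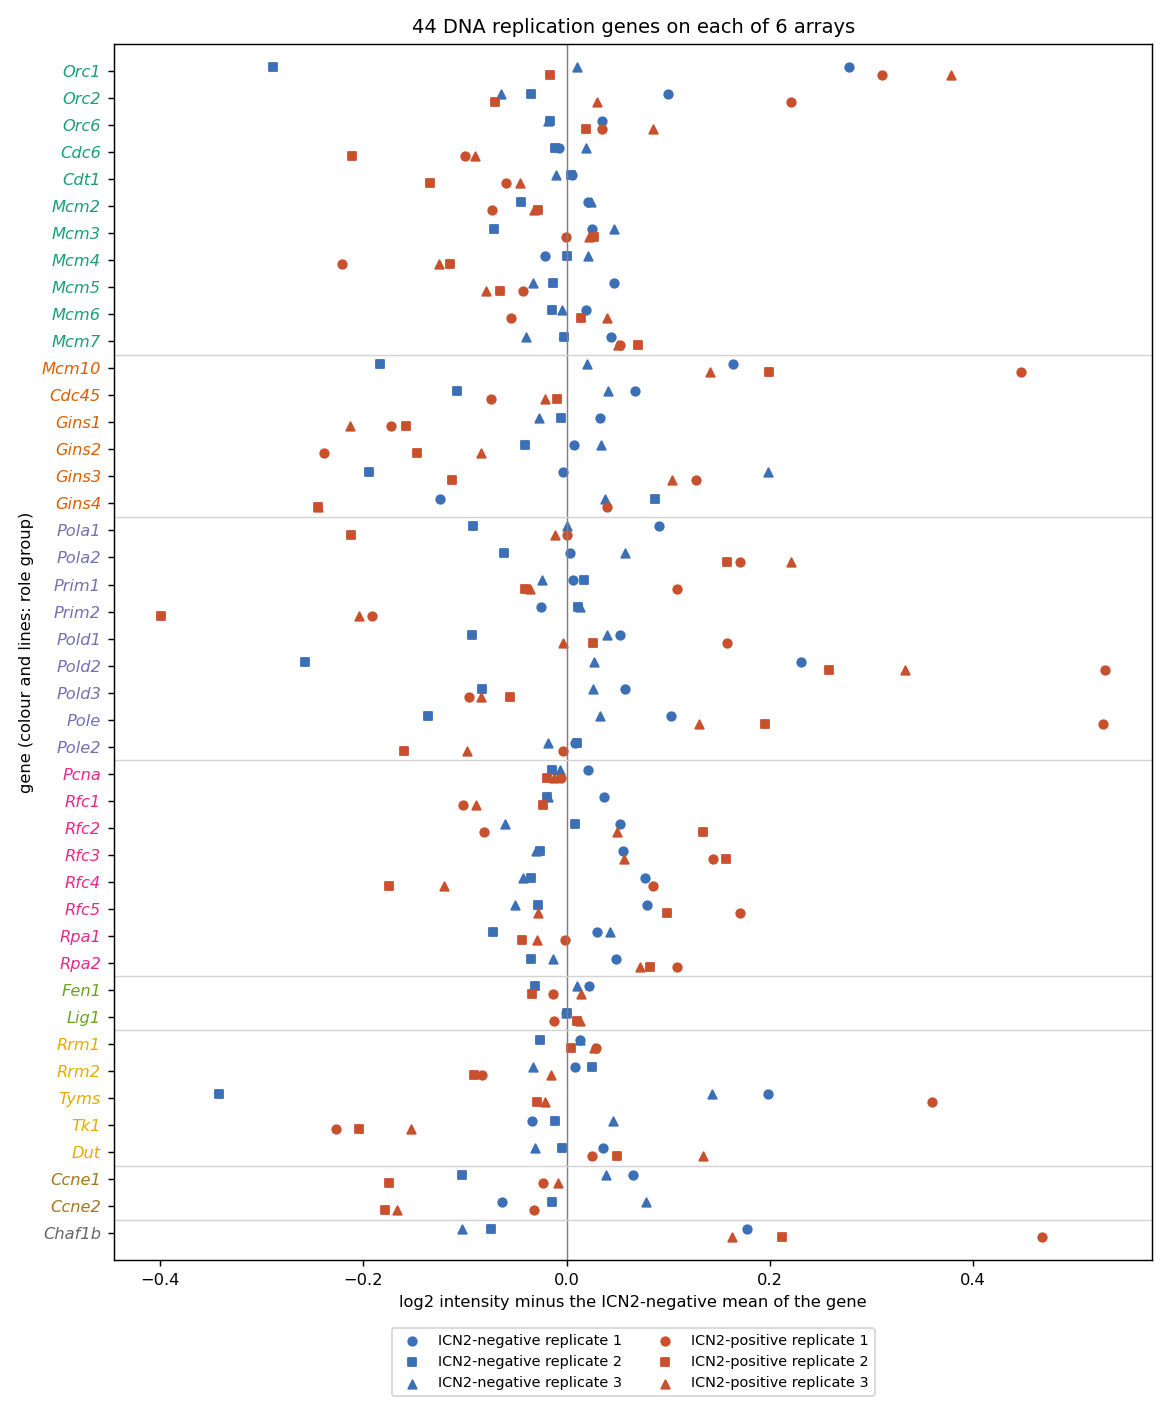
Log2 intensity of each of the 44 genes on each array minus the gene's ICN2-negative mean (x axis), with genes on the y axis by role, colour for the group and marker shape for the replicate. The within-group spread is widest in Tyms (SD 0.26) and Orc1 (SD 0.25) and narrowest in Lig1 (SD 0.010).

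Promoters were searched for E2F-type letters, a feature that the choice of the genes did not use. RefSeq windows (GRCm38.p6, 250 bases before to 50 after a start) were held for 37 of the 45 genes, as 43 windows. The motifs were TTTCCCGC, TTTGGCGC and TTTGCCGC, on both strands, with 0 overlapping matches. At least 1 was present in 12 of 43 member windows (27.9%), beside 1.99% of all 32851 windows. TTTCCCGC was in 7 (16.3%, beside 1.07%), TTTGGCGC in 6 (14.0%, beside 0.514%) and TTTGCCGC in 0 (beside 0.441%). CCAAT, searched on both strands, was in 24 (55.8%, beside 37.4%). The 12 tested members with a match had a median difference of -0.032, and the 24 with a window and no match one of 0.015. Shown are the matches that lie before the start, in 6 of these 12 members, with 20 bases on either side, so that the letters counted can be seen. Each reads 5′ to 3′ along the gene with the match in capitals, and GCGGGAAA and GCGCCAAA are TTTCCCGC and TTTGGCGC read on the opposite strand. In order, Cdc6 is at chr11:98907993-98908040 on the plus strand, Mcm5 at chr8:75109340-75109387 plus, Mcm6 at chr1:128359725-128359835 minus, Mcm7 at chr5:138172021-138172068 minus, Gins3 at chr8:95633498-95633545 plus and Pola1 at chrX:93632266-93632313 minus.
Cdc6: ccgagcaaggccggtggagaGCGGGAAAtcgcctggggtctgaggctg
Mcm5: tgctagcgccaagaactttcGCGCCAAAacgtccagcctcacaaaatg
Mcm6: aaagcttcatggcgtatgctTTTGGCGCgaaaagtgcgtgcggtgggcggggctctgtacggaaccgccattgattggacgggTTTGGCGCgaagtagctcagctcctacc
Mcm7: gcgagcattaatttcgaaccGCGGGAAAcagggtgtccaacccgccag
Gins3: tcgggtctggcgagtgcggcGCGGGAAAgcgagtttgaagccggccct
Pola1: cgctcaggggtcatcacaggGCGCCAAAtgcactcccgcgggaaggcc
A match is a run of letters and not a bound site.

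Of the 11 origin licensing genes, 5 had a higher and 6 a lower mean in ICN2-positive cells, 0 passed, and the median difference was -5e-04. Mcm4, a subunit of the helicase ring, read 12.83, 12.85 and 12.87 in ICN2-negative and 12.63, 12.73 and 12.72 in ICN2-positive replicates 1 to 3. All 3 ICN2-positive values were below the ICN2-negative ones, and the difference was -0.15 (95% interval -0.31 to 0.0029, adjusted p = 0.188 in limma). Its other probe set, of nearly the same brightness, differed by -0.041 with overlapping groups. Cdc6, which helps to load the ring and has 1 of the promoter matches above, read 11.74, 11.74 and 11.77 against 11.65, 11.54 and 11.66. Its groups were also apart, with a difference of -0.13 (interval -0.30 to 0.027, adjusted p = 0.248).

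Of the rest of the ring, Mcm2 differed by -0.045, Mcm3 by 0.016 and Mcm6, with 2 promoter matches, by -5e-04 (interval -0.15 to 0.15). Mcm5 differed by -0.063 (interval -0.21 to 0.086) and Mcm7 by 0.058 (interval -0.0895 to 0.21), each with the groups barely apart and in opposite directions. Mcm2, Mcm3, Mcm4, Mcm5 and Mcm7 were read by probe sets whose type (_x_ or _s_) may read other transcripts too. With the brightest probe set of another type Mcm2 was at -0.007, Mcm3 at -0.094, Mcm4 at -0.041, Mcm5 at 0.063 and Mcm7 at 0.0735. Dimmer probe sets of another type went the other way, at 0.0761 and 0.1097 in Mcm3 and -0.0672 in Mcm5. Cdt1, the partner of Cdc6 in loading, read 13.35, 13.35 and 13.33 against 13.28, 13.21 and 13.30, lower on every ICN2-positive array, with a difference of -0.08.

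Orc2 and Orc6, of the origin recognition complex, differed by 0.06 and 0.047 with overlapping groups. Orc1, the largest subunit, read 9.37, 8.81 and 9.11 against 9.41, 9.08 and 9.47. Its arrays scattered widely in both groups, and the difference of 0.22 had an interval of -0.22 to 0.67. A dimmer Orc1 probe set differed by -0.27.

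The 6 helicase activation genes had 2 higher and 4 lower means, 0 past the threshold and a median difference of -0.092. Gins1, a GINS subunit, read 12.25, 12.21 and 12.19 against 12.05, 12.06 and 12.01. All ICN2-positive values were lower, with a difference of -0.18 (interval -0.33 to -0.034, adjusted p = 0.126), and a dimmer probe set differed by -0.36. Gins2, its partner, read 11.51, 11.46 and 11.53 against 11.26, 11.35 and 11.42, again apart, with a difference of -0.16 (interval -0.33 to 0.016, adjusted p = 0.216).

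Gins3 and Gins4, the other GINS subunits, overlapped between the groups at 0.040 and -0.15. Cdc45, the helicase cofactor, differed by -0.035 (interval -0.22 to 0.15). Mcm10, which acts in helicase activation, read 11.32, 10.97 and 11.17 against 11.60, 11.35 and 11.29. It was highest in ICN2-positive replicate 1, the groups overlapped, and the difference was 0.26 (interval -0.055 to 0.58, adjusted p = 0.249). Without that array it was 0.17, and without ICN2-negative replicate 2 also 0.17.

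Among the 9 genes of polymerases and primase, 5 had a higher and 4 a lower mean and 0 passed, with a median difference of 0.011. Prim2, the large subunit of primase, read 11.80, 11.84 and 11.84 against 11.63, 11.43 and 11.62. Every ICN2-positive array was lower, with a difference of -0.26 (interval -0.46 to -0.067, adjusted p = 0.113). Its 3 probe sets differed by -0.26, -0.27 and -0.28, the last of them far dimmer (mean log2 intensity 5.43). Prim1, the catalytic subunit of the same enzyme, differed by 0.011 (interval -0.16 to 0.18).

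Pola2, the accessory subunit of polymerase alpha, read 9.87, 9.80 and 9.92 against 10.03, 10.02 and 10.08. All ICN2-positive values were higher, with a difference of 0.18 (interval 0.022 to 0.34, adjusted p = 0.147). Its other tested probe sets, which were far dimmer, differed by -0.031 and -0.033, and the mean of all 3 by 0.040. Pola1, the catalytic subunit, overlapped between the groups at -0.075. Pola1 lies on the X chromosome, and the groups also differ in sex.

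Pold2, an accessory subunit of polymerase delta, read 11.54, 11.05 and 11.34 against 11.84, 11.57 and 11.64. The groups were apart by a narrow gap, and the ICN2-negative arrays spread by an SD of 0.24. The difference was 0.37, or 1.30-fold (interval 0.0081 to 0.74, adjusted p = 0.176), and 0.25 without ICN2-negative replicate 2. Pold1 and Pold3, of the same polymerase, differed by 0.060 and -0.078 with overlapping groups. Pold1 was read by an _x_ probe set, and its dimmer probe set of another type differed by 0.28. Pole, the catalytic subunit of polymerase epsilon, read 11.72, 11.48 and 11.65 against 12.14, 11.81 and 11.74, highest in ICN2-positive replicate 1. Its groups were apart at 0.28 (interval -0.042 to 0.61, adjusted p = 0.23), and the difference was 0.16 without that array. Pole2 of the same enzyme differed by -0.087.

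Of the 8 genes of the clamp, its loader and single-strand binding, 4 had a higher and 4 a lower mean and 0 passed. Their median difference was 0.011, and all 8 intervals lay within 0.5. Pcna, the sliding clamp, read 13.67, 13.63 and 13.64 against 13.64, 13.63 and 13.63, a difference of -0.012 (interval -0.15 to 0.13). RefSeq lists the pseudogenes Pcna-ps1 and Pcna-ps2, and whether the Pcna probe set reads them was not tested.

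Rfc3, a clamp loader subunit, read 10.77, 10.69 and 10.69 against 10.86, 10.87 and 10.77. The groups were barely apart, with a difference of 0.12 (interval -0.044 to 0.28, adjusted p = 0.299). Rpa2, of the complex that coats single-stranded DNA, read 12.17, 12.08 and 12.11 against 12.23, 12.20 and 12.19. Its groups were apart at 0.087 (interval -0.062 to 0.24, adjusted p = 0.396), and a dimmer probe set differed by 0.20. Rpa1 differed by -0.025, and the other loader subunits lay between -0.071 in Rfc1, whose groups were barely apart, and 0.080 in Rfc5. Dimmer probe sets differed by -0.25 and -0.17 in Rfc1. In Rfc2, at 0.034, dimmer _x_ probe sets differed by -0.034 and -0.15. Rfc4, at -0.070, was read by an _s_ probe set, and its dimmer probe set of another type differed by -0.10.

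The genes that finish lagging strand fragments had little spread with the probe sets used. Fen1, the flap nuclease, read 13.73, 13.68 and 13.72 against 13.70, 13.68 and 13.73, a difference of -0.011 (interval -0.16 to 0.13, adjusted p = 0.915). Lig1, the ligase that seals the fragments, read 12.11, 12.11 and 12.11 against 12.10, 12.12 and 12.13, a difference of 0.0038 (interval -0.14 to 0.14, adjusted p = 0.971). The groups overlapped in both genes. Fen1 was read by an _x_ probe set. Its dimmer probe set of another type scattered more, at 11.88, 11.64 and 11.82 against 11.81, 11.68 and 11.87, and differed by 0.0087.

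Of the 5 nucleotide supply genes, 3 had a higher and 2 a lower mean and 0 passed, with a median difference of 0.020. Tk1, the thymidine kinase of cycling cells, read 11.979, 12.001 and 12.059 against 11.786, 11.809 and 11.860. All ICN2-positive values were lower, with a difference of -0.19 (interval -0.35 to -0.041, adjusted p = 0.122). Dut, which removes dUTP, read 13.44, 13.40 and 13.37 against 13.43, 13.45 and 13.54. Its groups overlapped at 0.070 (interval -0.090 to 0.23, adjusted p = 0.523).

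Rrm1 and Rrm2, the subunits of ribonucleotide reductase, differed by 0.020 (interval -0.12 to 0.16) and -0.063 (interval -0.21 to 0.088). Rrm2 was read by an _x_ probe set, and its dimmer probe sets of another type differed by -0.089 and 0.10. Tyms, thymidylate synthase, read 8.86, 8.32 and 8.81 against 9.02, 8.63 and 8.64. This was the widest within-group spread of the 44 genes, and the difference was 0.10 (interval -0.36 to 0.57). Tyms was also the dimmest of the 44, at a mean log2 intensity of 8.71, and its dimmer tested probe sets differed by 0.22 and 0.20. RefSeq lists a transcribed pseudogene, Tyms-ps, and whether the Tyms probe sets read it was not tested.

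Both cyclin E genes, whose products activate Cdk2 at the start of S phase, had lower means and overlapping groups. Ccne2 read 10.17, 10.22 and 10.31 against 10.20, 10.05 and 10.06, a difference of -0.13 (interval -0.32 to 0.064, adjusted p = 0.34). Ccne1 read 11.89, 11.73 and 11.87 against 11.81, 11.65 and 11.82, a difference of -0.069 (interval -0.28 to 0.14, adjusted p = 0.63). Chaf1b, of the complex that places histones on new DNA, read 11.74, 11.49 and 11.46 against 12.03, 11.78 and 11.73. It was highest in ICN2-positive replicate 1, the groups overlapped, and the difference was 0.28 (interval -0.023 to 0.58, adjusted p = 0.209).

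**Figure D3:**
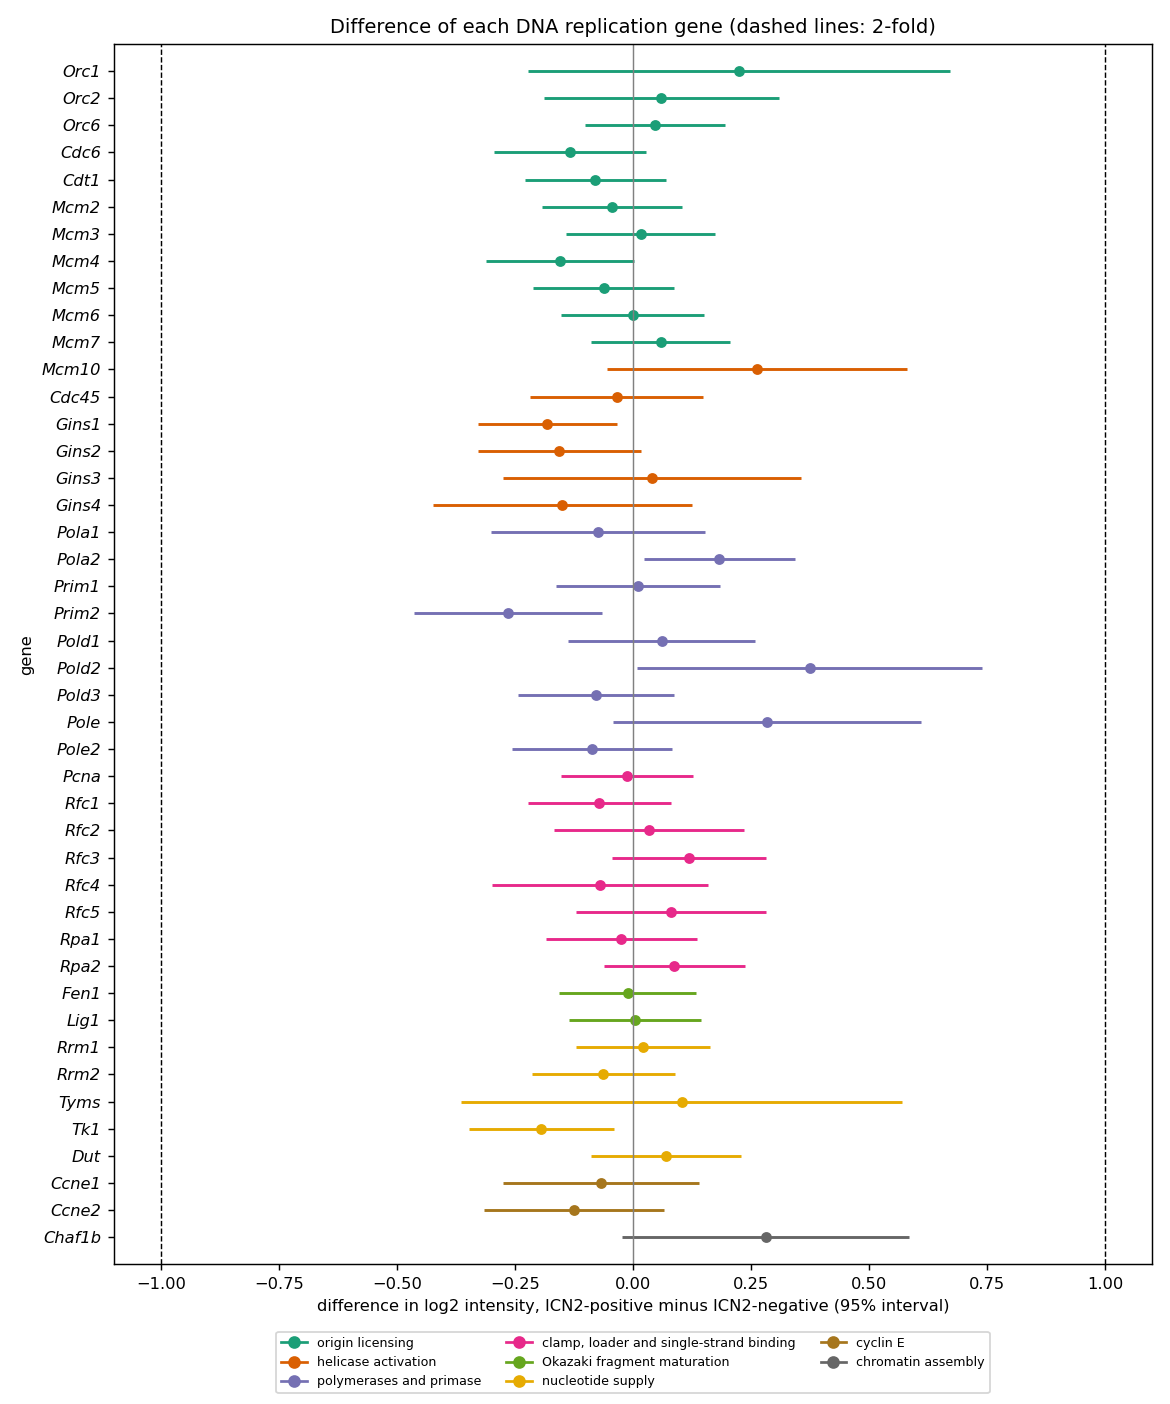
Difference in log2 intensity, ICN2-positive minus ICN2-negative (x axis), of each of the 44 genes (y axis, coloured by role), with its 95% interval from limma over 3 arrays per group. All 44 intervals lie within 2-fold, and those of Prim2, Gins1, Tk1, Pola2 and Pold2 leave out 0 before adjustment.

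Single probe sets gave the same count. Of 97 member probe sets 91 were tested, and 0 of them were among the 728 called over 27424 probe sets, while 9 had an unadjusted p under 0.05 in limma (9.89%, beside 24.3% of all probe sets tested). In 31 members several probe sets were tested, and in 10 of these they differed in sign.

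Per array, the median of the 44 genes relative to their ICN2-negative means was 0.034, -0.028 and 0.01 in ICN2-negative replicates 1 to 3 and -0.0011, -0.029 and -0.012 in ICN2-positive replicates 1 to 3. ICN2-positive replicate 2 was the lowest of the 6 arrays for 14 members (31.8%, beside 15.8% of all genes), and ICN2-negative replicate 2 for 13 (29.5%, beside 24.3%). ICN2-negative replicate 1 was the lowest for 0, beside 9.55% of all genes. ICN2-positive replicate 1 was the highest for 12 (27.3%, beside 31.8%). For ICN2-negative replicates 1 and 3 this number was 10 each (22.7%, beside 9.53% and 15.3%).

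Marker lists of blood lineages shifted further on these arrays. The 11 granulocyte-monocyte progenitor markers had medians of -3.40, -0.52 and -0.76 in ICN2-positive replicates 1 to 3, and 0 passed (smallest p in Csf3r, -2.26 ± 0.49, adjusted p = 0.0651). Without ICN2-positive replicate 1, 6 of the 11 passed as lower and 0 of the 44 replication genes passed, beside 768 of all 12837 genes. The 6 B cell markers had medians of 1.63, -0.015 and -1.33 in ICN2-negative and -2.87, -1.73 and -2.20 in ICN2-positive replicates 1 to 3, with 0 passing (smallest p in Blnk, adjusted p = 0.0749).

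Of 10 mast cell markers, with medians of -0.75, 1.07 and 0.60 in ICN2-positive replicates 1 to 3, Mcpt1, Mcpt2 and Mcpt4 were called higher. Without ICN2-negative replicate 2 or 3 only Mcpt2 was. Other markers of this list had lower means in ICN2-positive cells, with no call: Hdc (-1.49), Fcer1a (-1.35), Mcpt8 (-0.39), Cpa3 (-0.32) and Ms4a2 (-0.027). The median difference of the 10 was 0.025. Of 10 T cell markers, with medians of 1.18, 1.89 and 0.47 on the same arrays, Il2ra was called higher, at 4.16, 4.02 and 4.81 against 8.39, 7.94 and 6.77 (adjusted p = 0.0231). That call was lost without any ICN2-negative array, without ICN2-positive replicate 2, and with the stricter filter at the 60th percentile. Mcpt1, Mcpt2, Mcpt4 and Il2ra exceeded the 40th percentile only on the 3 ICN2-positive arrays. They entered the test through the group where they are high, their ICN2-negative values are in the dim range, and their calls support nothing further. On these arrays the 9 erythroid markers had medians of 0.14, -0.12 and -0.0043 and the 6 megakaryocyte markers of -0.92, 0.18 and -0.18, with 0 passing in either (smallest p in Slc4a1, adjusted p = 0.0596, and Pf4, adjusted p = 0.138). The part of these marker shifts in the replication values was not tested.

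**Figure D4:**
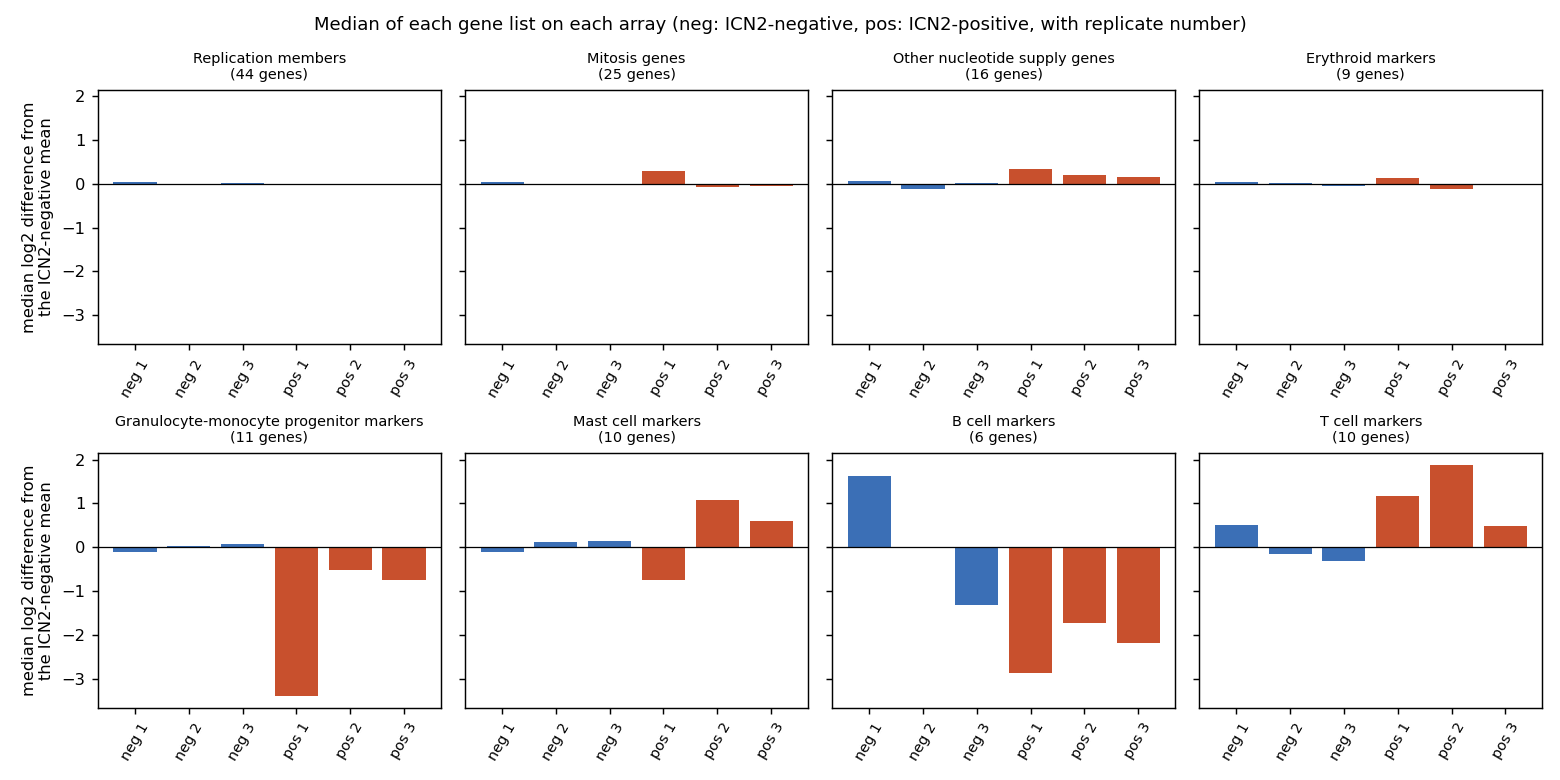
Median over the genes of each list of log2 intensity minus the gene's ICN2-negative mean (y axis), on each of the 6 arrays (x axis). The 44 replication genes stay between -0.029 and 0.034, while the granulocyte-monocyte progenitor markers reach -3.40.

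Other genes of the pathway were read from further lists. Of 34 other fork and origin genes, 0 passed, with a median difference of 0.057. Donson, a fork protection factor, had the smallest p, at -0.24 ± 0.090 (adjusted p = 0.162). Of 14 genes of chromatin replication, 0 passed, with a median of -0.023, and H2ax, the histone variant marked at DNA breaks, had the smallest p at 0.33 ± 0.087 (adjusted p = 0.0906).

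Of 15 S-phase checkpoint genes, 0 passed, with a median of 0.099. Rad1, of the checkpoint clamp, had the smallest p, at 0.33 ± 0.089 (adjusted p = 0.0927). Of 25 mitosis genes, 0 passed, with a median of 0.033 and per-array medians of 0.29, -0.071 and -0.059 in ICN2-positive replicates 1 to 3. Kif20a, a mitotic kinesin, had the smallest p, at 0.25 ± 0.064 (adjusted p = 0.0841).

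Among 16 other nucleotide supply genes, 1 passed, beside 4.36% of all genes, and the median difference was 0.23. The groups did not overlap in 10 of the 16, beside 37.5% of all genes. An unadjusted p under 0.05 in limma was reached by 7, beside 27.4% of all genes. Samhd1, which breaks down deoxynucleotides, read 10.83, 11.06 and 11.04 against 11.84, 11.58 and 11.78. All ICN2-positive values were higher, and it rose by 0.75 ± 0.11, or 1.69-fold (adjusted p = 0.0261). Among single arrays left out, the call was lost when ICN2-negative replicate 1, 2 or 3 or ICN2-positive replicate 3 was left out (adjusted p between 0.063 and 0.101), and when its probe sets were averaged (0.0674).

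Among 24 G1/S regulators, 1 passed, beside 4.36% of all genes, and the median difference was 0.067. The groups did not overlap in 13 of the 24, beside 37.5% of all genes. An unadjusted p under 0.05 in limma was reached by 7, beside 27.4% of all genes. E2f2, an E2F factor of S-phase genes, read 10.18, 10.29 and 10.15 against 8.23, 8.86 and 8.96. The groups were well apart, and E2f2 fell by 1.52 ± 0.20, or 2.88-fold (adjusted p = 0.0225). Among single arrays left out, the call was lost when ICN2-negative replicate 1, 2 or 3 or ICN2-positive replicate 3 was left out (adjusted p between 0.054 and 0.108), while the difference stayed between -1.66 and -1.30 over all arrays left out in turn.

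**Figure D5:**
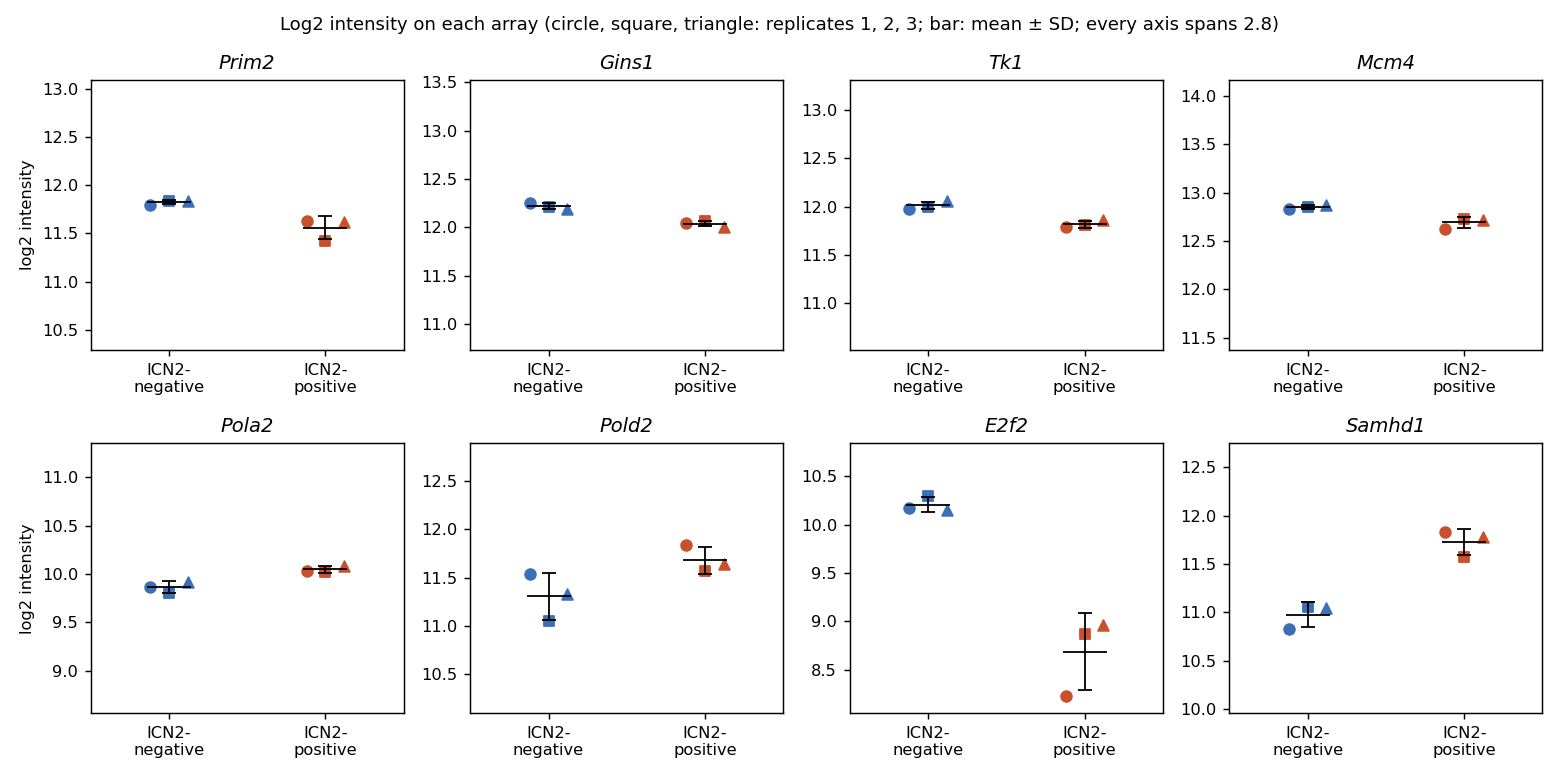
Log2 intensity (y axis, the same span in every panel) on each array by group (x axis), with the mean ± SD of 3 arrays, for 6 replication genes and for E2f2 and Samhd1. The replication genes differ by at most 0.37 between the group means, E2f2 by -1.52 and Samhd1 by 0.75.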

How the data were processed

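The authors deposited 1 linear intensity per probe set and array (RMA, per the submitters' processing notes), and log2 was taken here. Per the labels, 5 ng of RNA was amplified. Scanner files were not used here, so background is unknown and the number of arrays limits precision. Of 45101 probe sets, 34958 had 1 gene in the platform annotation, 932 several and 9211 none listed. Kept for testing were probe sets that exceeded the 40th percentile of an array on 3 or more arrays, without the 64 controls. Group means were compared in limma 3.58.1 (R 4.3.3) by lmFit and eBayes, with no covariate. Benjamini-Hochberg adjustment ran over 12837 genes with a threshold of 0.05. The fit was tried on simulated data with changes larger than any difference of a replication gene here. Whether changes as small as those of the members would be called was not tested. Genes named with every array were the 2 of smallest p in each role, and Kit. Of other lists, those past the threshold or else the one of smallest p were named. Further genes of the progenitor gate and mast cell lists were named after their values were seen. Values on every array were added for Cdt1, Orc1, Mcm10, Pold2, Pole, Pcna and Tyms after they were seen. Members and lists were chosen with earlier results of these data known. Alternatives changed the filter, the scaling, the variance model, weights for arrays, how probe sets were chosen, the replicate block and the threshold, or left out 1 array.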

Additional observations from a re-analysis of the deposited data

How the results depend on the processing

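The count of replication genes past the threshold stayed 0 under 16 of 17 alternatives. With array weights (0.238 for ICN2-positive replicate 1 and 5.721 for replicate 3) it was 4 of 44, beside 3262 of all 12837 genes. The 4 were Gins1, Prim2 and Tk1, which were lower, and Pola2, which was higher. The median difference of the replication genes moved to -0.0389 without ICN2-negative replicate 2 and lay between -0.0389 and 0.0015 with 1 array left out. Over all genes 847 passed with an intensity trend, 3262 with array weights, 340 with the replicate block, 1601 at 0.1 and 99 to 768 with 1 array left out. Array weights gave 2 B cell, 2 erythroid, 6 G1/S, 3 granulocyte-monocyte, 1 mitosis, 1 other fork and origin, 4 nucleotide supply, 1 gate, 3 checkpoint and 3 T cell genes. The intensity trend gave 1 erythroid and 1 granulocyte-monocyte gene, and the stricter filter 0 T cell genes. At 0.1 there was 1 B cell, 1 erythroid, 1 granulocyte-monocyte, 1 mitosis, 1 chromatin and 1 checkpoint gene, and 2 nucleotide supply and 2 T cell genes. Leaving out 1 array gave 0 to 1 B cell, 0 to 1 G1/S, 0 to 6 granulocyte-monocyte, 1 to 4 mast cell, 0 to 1 nucleotide supply and 0 to 2 T cell genes.

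The replicate block gave 0 G1/S (E2f2, adjusted p = 0.0509 in limma), 0 nucleotide supply (Samhd1, 0.0712) and 0 T cell genes, and changed no call of a replication gene. Same-numbered samples deviated together at r = 0.178, 0.135 and 0.0935, 5 of the 6 other pairs were below 0, and ICN2-positive replicate 3 correlated best with ICN2-negative replicate 2 (0.162). The labels do not say what a number marks, and whether same-numbered samples share anything is not settled by these values.

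Signs were compared for the 44 replication genes, of which 0 had a call in the main fit, and for E2f2 and Samhd1. They turned in some replication genes and in neither E2f2 nor Samhd1. With array weights Fen1 was 0.0053, Mcm6 0.0349, Pold1 -0.0062, Prim1 -0.0249 and Tyms -0.0486. Without _x_ and _s_ probe sets Fen1 was 0.0087, Mcm3 -0.0939 and Mcm5 0.0635. With the mean of probe sets Orc1 was -0.0246, Rfc2 -0.0509 and Rrm1 -0.0355. Median centring gave -0.0108 for Lig1 and -0.0039 for Prim1, and quantile normalization -2e-04 for Lig1. With 1 array left out, ranges crossing 0 were -0.0271 to 3e-04 in Fen1, -0.0575 to 0.1389 in Gins3, -0.001 to 0.0119 in Lig1, -0.0196 to 0.0395 in Mcm3, -0.0205 to 0.0269 in Mcm6, -0.0205 to 0.1253 in Orc2, -0.0383 to 0.0365 in Prim1, -0.0162 to 0.0915 in Rfc2 and -0.0682 to 0.2021 in Tyms. The cause was not tested.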
